A study of Mus musculus with 16 samples.

Results

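The 47 genes described here drive or brake the cell division cycle and DNA replication. They were taken from a named list of proliferation genes and matched by symbol, and all 47 were found among the 23329 genes of the deposited expression tables. By role they comprised 17 mitotic genes, 14 S-phase genes, 2 E2F transcription factors, 5 G1 cyclins, 3 cyclin-dependent kinases (CDKs) of the G1 and S phases, 3 CDK inhibitors and 3 other regulators. The study measured polyadenylated RNA in BetaTC6, a β-cell line from a mouse insulinoma of C57BL/6 background, in 16 libraries of 4 groups with 4 libraries each. The groups were the wild-type line with vehicle (DMSO), the wild-type line with ivermectin, a line labelled P2ry1 knockout with vehicle, and that line with ivermectin. Ivermectin is a drug against parasites, and the product of P2ry1 is a receptor for extracellular nucleotides. Cells of every group grew for 3 days in serum, were held in glucose-free buffer, and then received 20 mM glucose for 30 min with the drug or the vehicle, per the labels' protocols. The labels do not give the drug's dose, the edit made in P2ry1 or whether the knockout line is 1 clone. The comparisons asked whether the genotype label, or the drug within each line, went with a different level of these genes, and how S-phase genes compared with mitotic genes and cyclins with inhibitors.

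As background, cells enter the cycle when D-type cyclins activate Cdk4 and Cdk6 and E-type cyclins activate Cdk2, which phosphorylate the retinoblastoma protein Rb and free the E2F factors to switch on genes for DNA replication. Cdk1 with the A- and B-type cyclins then drives mitosis, whose genes are mostly controlled by the MuvB complexes DREAM, B-Myb and FoxM1 through the cell cycle homology region (CHR) and CCAAT boxes of their promoters. The inhibitors p21, p27 and p18 hold the CDKs back. Adult β cells rarely divide and depend on cyclin D2 and Cdk4 to do so, whereas βTC lines come from mice with the large T antigen of simian virus under the insulin promoter, a protein that binds Rb and p53.

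Library totals ran from 893288 to 2013475 counts, with the wild-type vehicle group holding the 4 lowest. CPM below means counts scaled to a common library total, with edgeR's TMM factors. P2ry1 read 85.4 to 106 CPM in the 8 wild-type libraries and 72.8 to 94.8 CPM in the 8 libraries labelled knockout, and no comparison of it passed the test. A gene-level count need not change with a small edit, so this level does not check the label, and "knockout" below is the label. The 10 β-cell markers summed to 30214 to 41113 CPM, with none at 0 in any library. The 10 hepatocyte markers, Alb first among them, summed in the wild type to 610.2 to 1595 CPM with vehicle and 169 to 348 CPM with the drug, and in the knockout line to 48.6 to 105 and 76.3 to 247 CPM. The sum mixes patterns that differ. Ambp averaged 81.8 CPM with vehicle and 71.6 CPM with the drug in the wild type, and 11.8 and 15.8 CPM in the knockout line. Alb averaged 579 and 101 CPM, and 38.9 and 68.2 CPM, in the same order. Markers of fibroblasts, immune cells and endothelium summed to at most 11.2, 9.62 and 2.93 CPM. Wild-type ivermectin library 4 stood apart from its group: over genes, the chi-square per degree of freedom was 5.05 to 6.81 against its 3 partners and 1.17 to 2.18 for every other pair within a group. Without it 15 of the 17 ivermectin calls given below remained, with Cdt1 and Tyms lost (edgeR adjusted p = 0.0736 and 0.0873), and Cdkn1a stood at log2 -0.29 (edgeR adjusted p = 0.0362). The labels do not say that the libraries of a group came from separate cultures, so p-values measure the spread between these libraries, which may be technical. In such bulk RNA, fewer cells in a phase and less RNA per cell cannot be told apart.

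The set was broadly expressed in this line. Compared per transcript length in TPM, the length-scaled abundance that RSEM gives, the mean over 16 libraries ranked Cdkn2c, which encodes the Cdk4 and Cdk6 inhibitor p18, first at 717 ± 68.6 TPM (SD, n = 16). Pcna, the sliding clamp of the replication fork, came second at 677 ± 43.6 TPM, within the spread of Cdkn2c. Cdk4 at 343 ± 20.8 TPM, Top2a at 311 ± 29.2 TPM and Birc5 at 269 ± 42.4 TPM followed. Of the 47 genes, 45 passed the filter on low counts and 44 had a mean of at least 30 CPM. Myc, a transcription factor that drives growth, was the lowest gene tested, at 3.58 ± 1.82 TPM.

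The kinases and cyclins of G1 were present very unequally. Ccnd1, which encodes cyclin D1, had 49 counts in all, with 0 to 7 counts in a library and a mean of 0.746 TPM. Cdk6 had 3 counts in all, in 2 of the 16 libraries, and a count of 0 allows up to 1.49 to 3.36 CPM at these totals, with counting error alone considered. Neither gene was tested. Ccnd2 at 48.6 ± 12.3 TPM and Ccnd3 at 38.8 ± 5.40 TPM therefore supplied nearly all D-type cyclin RNA, next to Cdk4 as the D-cyclin partner. The plot of TPM by role shows this spread.

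**Figure D1:**
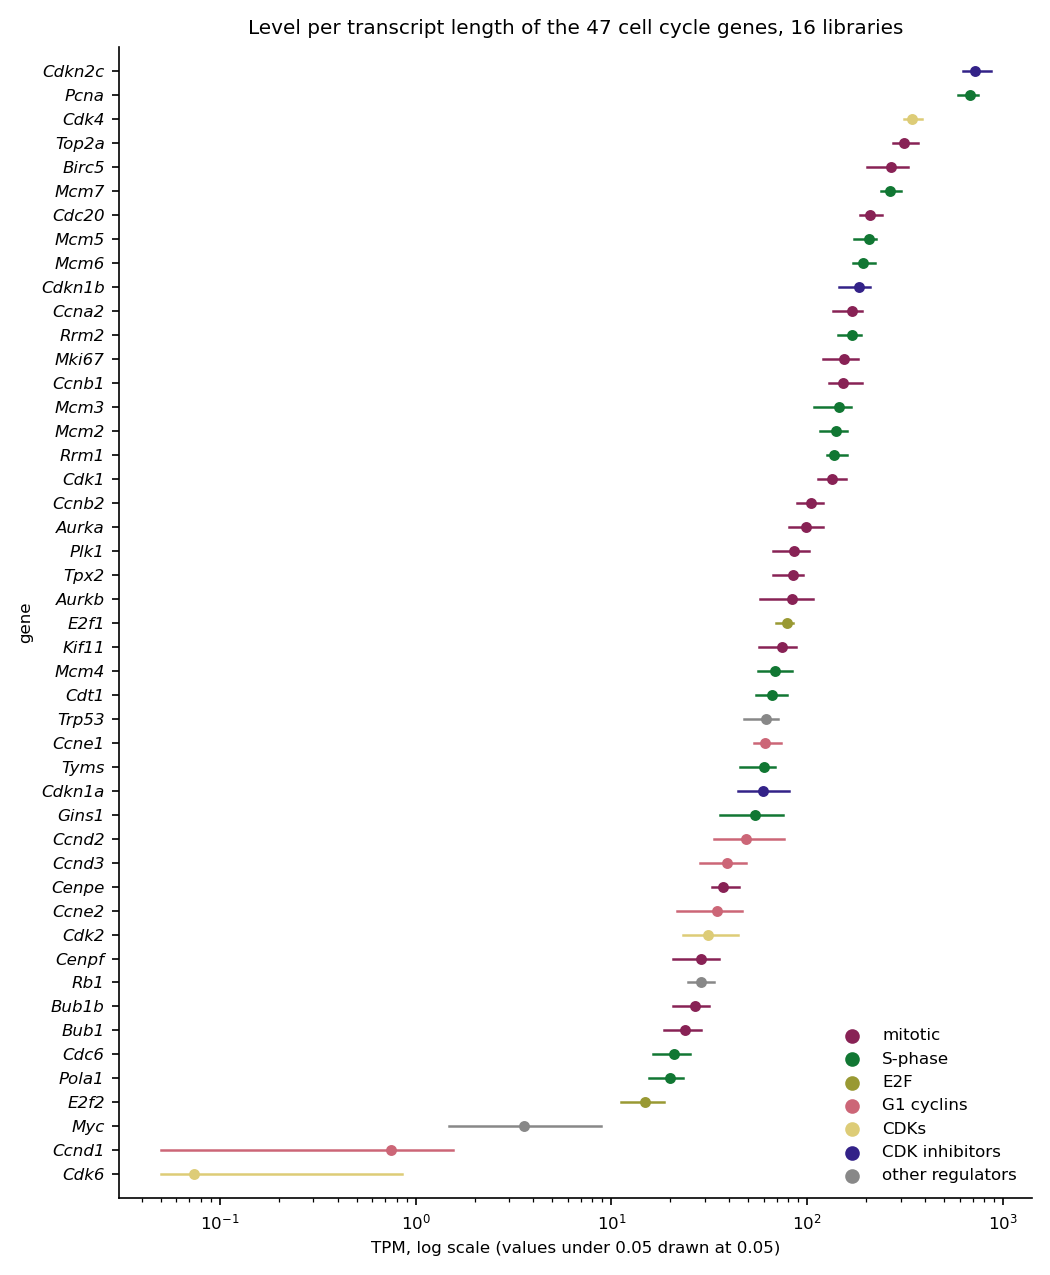
Mean level of each of the 47 genes on a log scale, in TPM over 16 libraries (points, with lines from the lowest to the highest library), ordered by level and colored by role, with values under 0.05 drawn at 0.05. Cdkn2c and Pcna lie highest at 717 and 677 TPM, and Ccnd1 and Cdk6 lie lowest.

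Some of the mitotic genes were higher in the knockout line than in the wild type under both treatments, and so was cyclin D2, while cyclin E2 was lower. In vehicle, 13 of the 45 genes tested passed an adjusted p of 0.05, or 28.9%, against 20.7% of the 10822 genes tested; 11 rose, where 9.9% of all genes did, and 2 fell, where 10.8% did. In ivermectin, 17 of 45 passed, or 37.8%, against 27.8%; 13 rose, against 14% of all genes, and 4 fell, against 13.9%. Among the 6657 genes with a mean of at least 30 CPM, closer to these genes in level, 24.9% were called in vehicle (13.1% higher and 11.7% lower) and 34% in ivermectin (18.3% higher and 15.8% lower). The share of called genes was therefore near that background, and the direction was uneven. The comparisons in vehicle and in ivermectin share no library. They called 11 genes in common, all in the same direction, which is 84.6% of the vehicle calls and 64.7% of the ivermectin calls. Over all genes tested, 1634 were called in both, 1629 of them in the same direction, or 72.8% of the vehicle and 54.3% of the ivermectin calls. The hepatocyte marker sum also differed between the lines in vehicle, and 2 of the 13 vehicle calls remained with Alb as a covariate. The 11 lost kept their direction, 5 with an estimate at least as large (Aurkb, Ccnb2, Mcm3, Ccne1 and Cdkn2c) and 6 with a smaller one (Top2a, Ccnb1, Cdk1, Birc5, Tyms and Ccne2). Of these, Ccnb1 went from log2 0.35 to 0.19 and Ccne2 from -0.46 to -0.23.

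By role, 7 of 17 mitotic genes rose in vehicle and none fell, with a median log2 fold change of 0.15, and 8 rose and 1 fell in ivermectin, with a median of 0.17. The median over all genes tested was 0.00 in each comparison. Of the 14 S-phase genes, 2 rose in vehicle with a median of 0.04, and 4 rose and 1 fell in ivermectin with a median of 0.06. Among the mitotic genes the rises were thus 41.2% and 47.1%, beside the 13.1% and 18.3% of genes at 30 CPM or more, and among the S-phase genes 14.3% and 28.6%, the first near that background. Of the 3 inhibitors, 1 fell in each comparison and none rose, beside falls of 11.7% and 15.8% of genes at 30 CPM or more. A share of 3 genes says little. The plot of fold changes by gene shows both comparisons side by side.

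**Figure D2:**
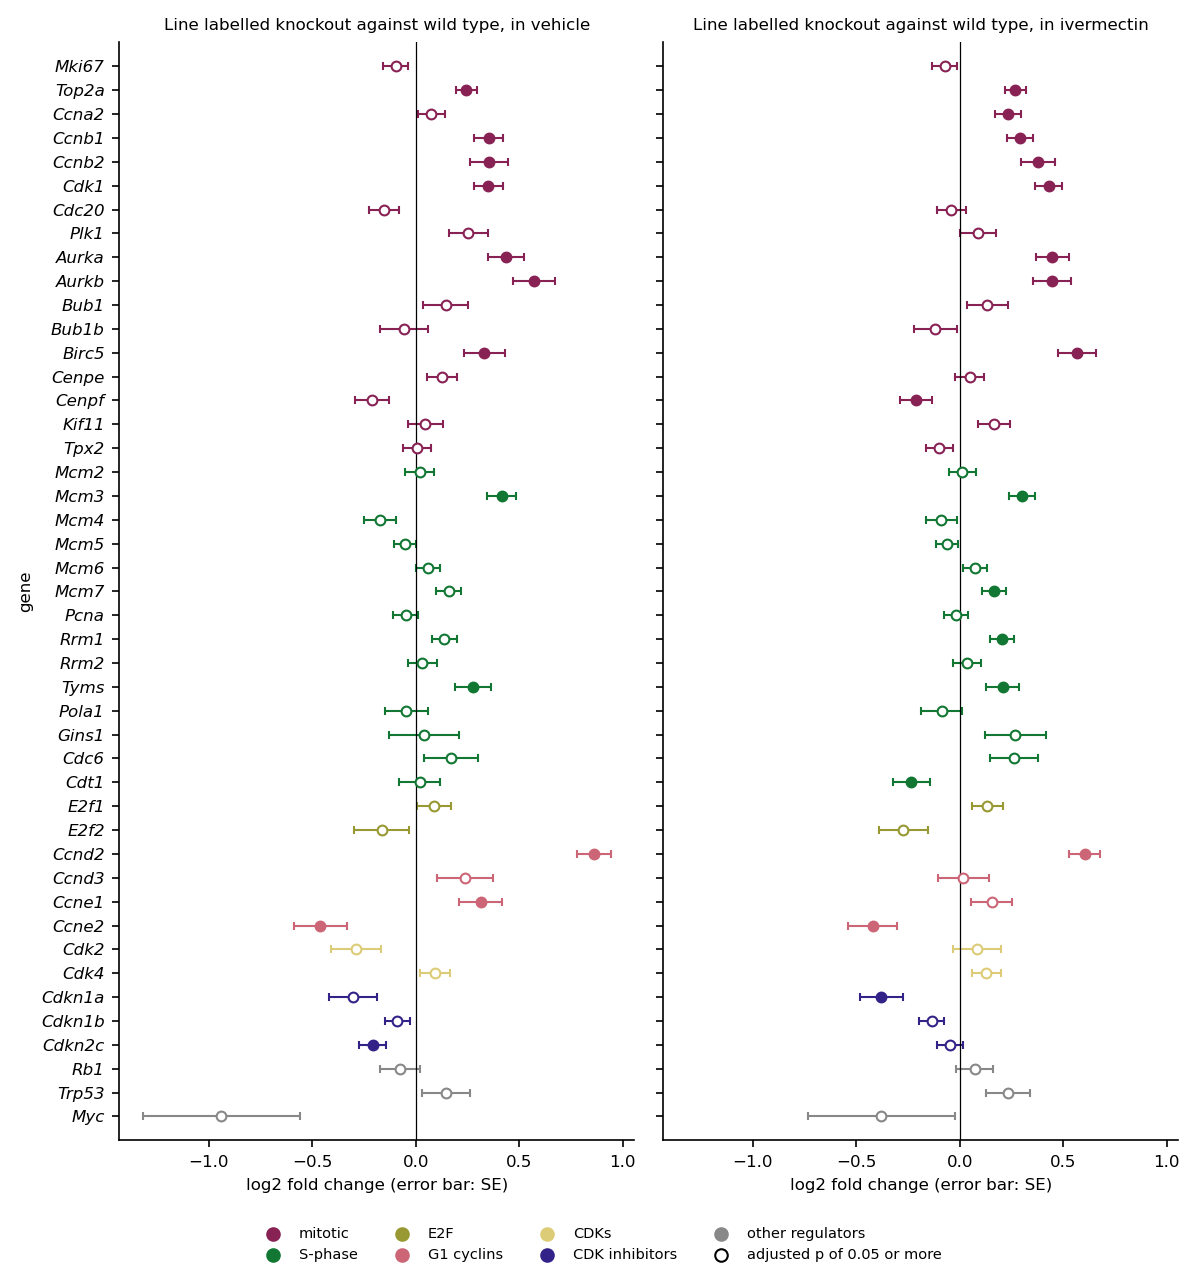
Log2 fold change of the line labelled knockout against the wild type for the 45 genes tested (points, error bars are SE, 4 libraries a group), in vehicle on the left and in ivermectin on the right, colored by role; filled points passed an adjusted p of 0.05. Filled mitotic points lie right of 0 except Cenpf in ivermectin, Ccnd2 lies farthest right at 0.86 and 0.61, and the filled inhibitors lie left of 0.

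The aurora kinases had the largest rises among the 17 mitotic genes in vehicle, and Birc5 and the aurora kinases in ivermectin. Aurkb, at chr11:69045624-69051664 in GRCm38.p6, encodes the kinase of the chromosomal passenger complex and read 77.6, 87.03, 75.9 and 79.9 CPM with vehicle and 98.96, 102, 68.9 and 86.5 CPM with the drug in the wild type, and 114, 123, 120.2 and 119 CPM with vehicle and 131, 116, 118 and 127 CPM with the drug in the knockout line. All 8 knockout values were above all 8 wild-type values, with wild-type ivermectin library 3 the lowest of all. The level was 1.49-fold that of the wild type in vehicle (log2 0.57 ± 0.10 SE, edgeR adjusted p = 7.04e-05) and 1.36-fold in ivermectin (log2 0.45 ± 0.091 SE, edgeR adjusted p = 0.000289). Birc5, which encodes survivin of the same complex, read in vehicle 140.5, 132, 166 and 109.6 CPM in the wild type and 189.9, 163, 174 and 159 in the knockout line, and in ivermectin 113, 133, 131 and 151 in the wild type and 185, 179, 206 and 206 in the knockout line. In vehicle the groups overlapped, since wild-type library 3 lay above knockout libraries 2 and 4, and in ivermectin they did not. It rose by 0.33 ± 0.098 SE on the log2 scale in vehicle (edgeR adjusted p = 0.013), a call that was lost without wild-type vehicle library 4 (edgeR adjusted p = 0.108) or knockout vehicle library 1 (0.0544). In ivermectin it rose by 0.57 ± 0.090 SE (edgeR adjusted p = 9.24e-06). Aurka, the kinase of the spindle poles, read 109, 103, 96.2 and 97.5 CPM with vehicle and 93.5, 94.3, 94.8 and 112 CPM with the drug in the wild type, and 136, 125, 137 and 149.9 CPM with vehicle and 134, 131, 133 and 136 CPM with the drug in the knockout line. Again every knockout library stood above every wild-type library, although wild-type ivermectin library 4 lay well above the other 3 of its group. The fold change was 0.44 ± 0.087 SE on the log2 scale in vehicle (edgeR adjusted p = 0.000271) and 0.45 ± 0.080 SE in ivermectin (edgeR adjusted p = 5.91e-05).

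Cdk1 and its B-type cyclins moved by similar amounts. Cdk1, the mitotic kinase, read 209, 212, 238 and 199.7 CPM with vehicle and 199.9, 226, 229 and 224 CPM with the drug in the wild type, and 287, 272, 270.4 and 265 CPM with vehicle and 287, 298, 319 and 278 CPM with the drug in the knockout line. The lowest knockout value was above the highest wild-type value, that of wild-type vehicle library 3. Its fold change was 1.27 in vehicle (log2 0.35 ± 0.071 SE, edgeR adjusted p = 0.000318) and 1.35 in ivermectin (log2 0.43 ± 0.066 SE, edgeR adjusted p = 5.19e-06). Ccnb1, cyclin B1, read in vehicle 189, 211, 204 and 190.4 CPM in the wild type and 260.2, 264, 245 and 246 in the knockout line, and in ivermectin 208, 196, 208 and 202 in the wild type and 245, 258, 229 and 265 in the knockout line. The lines did not overlap, and the wild-type libraries kept within a narrow band. Ccnb1 rose by 0.35 ± 0.069 SE on the log2 scale in vehicle (edgeR adjusted p = 0.000214) and by 0.29 ± 0.065 SE in ivermectin (edgeR adjusted p = 0.000796). Ccnb2, cyclin B2, read 95.5, 82.1, 80.1 and 78.01 CPM with vehicle and 83.5, 89.9, 86.2 and 95.7 CPM with the drug in the wild type, and 112, 97.8, 109 and 109 CPM with vehicle and 110.4, 113, 119 and 118 CPM with the drug in the knockout line. Knockout vehicle library 2 was the lowest of its line and still above every wild-type library. The change was log2 0.35 ± 0.092 SE, edgeR adjusted p = 0.00485 in vehicle and log2 0.38 ± 0.082 SE, edgeR adjusted p = 0.000586 in ivermectin. Ccna2, cyclin A2, which acts in both S phase and mitosis, passed in ivermectin alone (log2 0.23 ± 0.062 SE, edgeR adjusted p = 0.00421), against log2 0.08 ± 0.065 SE, edgeR adjusted p = 0.447 in vehicle; that difference between treatments was not called in the interaction test below.

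Not every mitotic gene followed. Top2a, the topoisomerase that untangles sister chromatids, read 973, 1026, 995 and 977 CPM with vehicle and 1025, 1007, 997 and 987 CPM with the drug in the wild type, and 1097, 1208, 1254 and 1145 CPM with vehicle and 1246, 1290.3, 1128 and 1173 CPM with the drug in the knockout line. The lines did not overlap, and its change was among the smaller ones called, at log2 0.24 ± 0.052 SE, edgeR adjusted p = 0.000609 in vehicle and log2 0.27 ± 0.051 SE, edgeR adjusted p = 0.000129 in ivermectin. Mki67, the source of the Ki-67 proliferation antigen, read 1132, 1169, 1046 and 1114 CPM with vehicle and 1153, 1075, 1045 and 992 CPM with the drug in the wild type, and 921, 1097, 1080.0 and 1071 CPM with vehicle and 1049, 1118, 920.5 and 973 CPM with the drug in the knockout line. Those ranges overlapped in both treatments, with knockout vehicle library 1 and knockout ivermectin library 3 the lowest. The estimate lay below 0 and did not pass, at log2 -0.10 ± 0.061 SE, edgeR adjusted p = 0.278 in vehicle and log2 -0.07 ± 0.060 SE, edgeR adjusted p = 0.407 in ivermectin. Cenpf, a kinetochore protein, fell in ivermectin (log2 -0.21 ± 0.078 SE, edgeR adjusted p = 0.0401), and in vehicle the estimate was alike without passing (log2 -0.21 ± 0.082 SE, edgeR adjusted p = 0.0672). The Cenpf call was fragile: leaving out any 1 ivermectin library other than wild-type library 4 or knockout library 2 ended it (edgeR adjusted p from 0.0613 to 0.117), and in vehicle it passed without wild-type library 1 or knockout library 2 or 3 (0.0269 to 0.039) and stood at log2 -0.13 (0.271) without knockout library 1. Plk1, polo-like kinase, did not pass in vehicle (log2 0.25 ± 0.095 SE, edgeR adjusted p = 0.0522) and did so without wild-type library 3 or 4 or knockout library 1 (0.0281 to 0.0413), while without wild-type library 2 it stood at log2 0.16 (0.275). The other 6 mitotic genes, Cdc20, Bub1, Bub1b, Cenpe, Kif11 and Tpx2, passed in neither comparison.

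**Figure D3:**
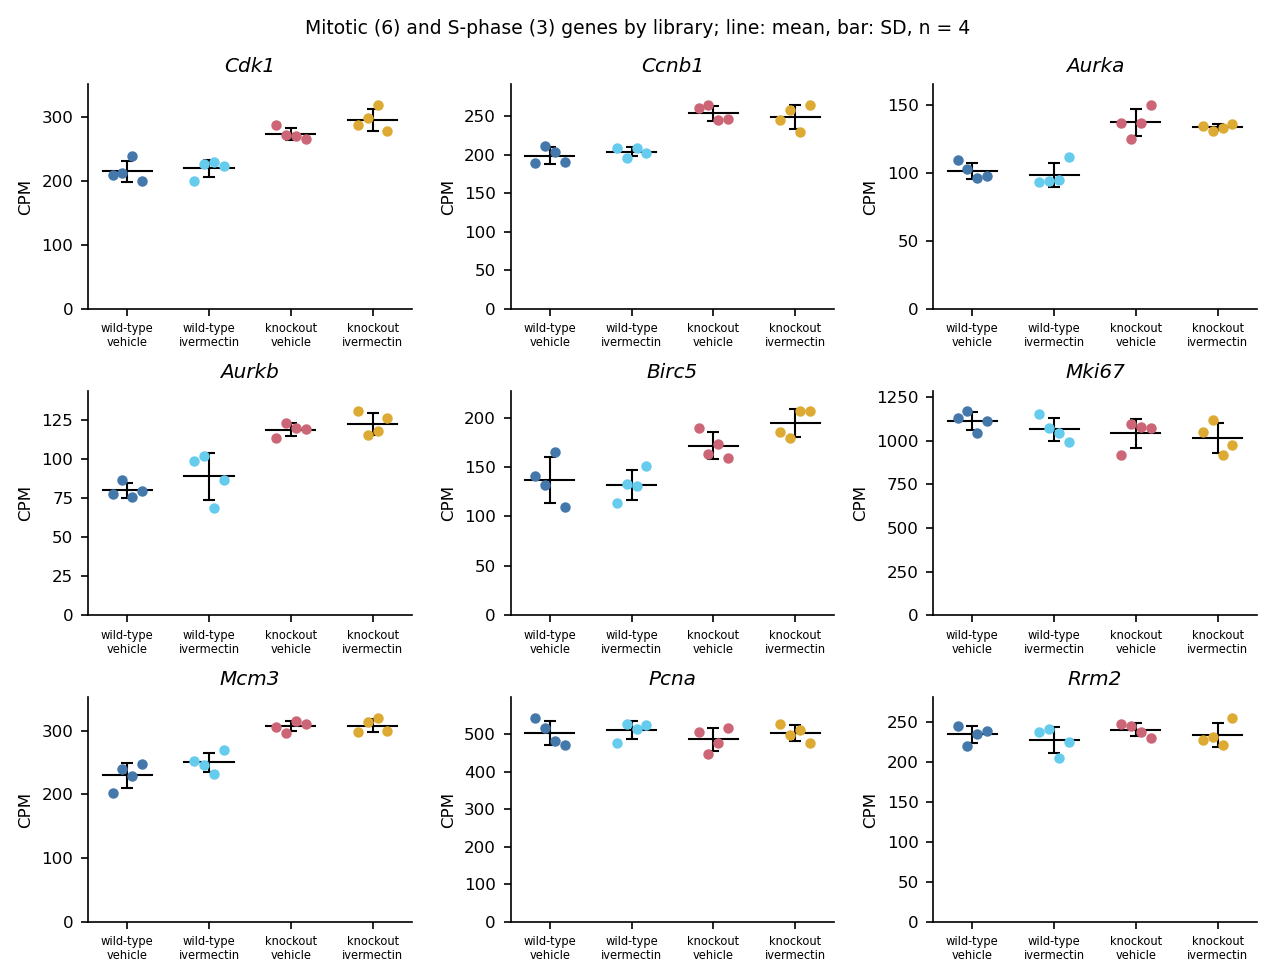
CPM of 6 mitotic genes (Cdk1, Ccnb1, Aurka, Aurkb, Birc5, Mki67) and 3 S-phase genes (Mcm3, Pcna, Rrm2) in each of the 16 libraries (points; line, group mean; error bar, SD, n = 4), with each axis starting at 0. Cdk1, Ccnb1, Aurka, Aurkb and Mcm3 lie higher in both knockout groups, while Mki67, Pcna and Rrm2 overlap between all groups.

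Among the S-phase genes Mcm3 and Tyms rose in both treatments, and Mcm7 and Rrm1 in ivermectin. Mcm3, a subunit of the replicative MCM helicase at chr1:20802966-20820312, read 202, 239.6, 229 and 248 CPM with vehicle and 253, 246, 232 and 269 CPM with the drug in the wild type, and 305, 297, 315 and 310.4 CPM with vehicle and 299, 314, 320.1 and 300.2 CPM with the drug in the knockout line. All 8 knockout libraries were above all 8 wild-type libraries. The level was 1.33-fold in vehicle (log2 0.41 ± 0.068 SE, edgeR adjusted p = 1.61e-05) and 1.23-fold in ivermectin (log2 0.30 ± 0.063 SE, edgeR adjusted p = 0.000418). Its partner Mcm2 read in vehicle 349.6, 286, 334 and 306 CPM in the wild type and 310.1, 330.0, 312 and 338 in the knockout line, and in ivermectin 317, 311, 281 and 297 in the wild type and 329.7, 287, 287 and 316 in the knockout line. These values overlapped in both treatments, and no comparison of Mcm2 passed. Mcm7 rose in ivermectin (log2 0.16 ± 0.058 SE, edgeR adjusted p = 0.032) and not in vehicle (log2 0.16 ± 0.061 SE, edgeR adjusted p = 0.0558). It lost the ivermectin call without wild-type library 1, 2 or 3 or knockout library 2 or 3 (edgeR adjusted p from 0.0592 to 0.08) and gained the vehicle call without wild-type library 4 (0.00976) or knockout library 2 (0.0448). Mcm4, Mcm5 and Mcm6 passed in neither.

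Of the listed genes of nucleotide supply, Tyms was called in both treatments, Rrm1 in ivermectin alone and Rrm2 in neither. Tyms, thymidylate synthase, passed in both comparisons (log2 0.28 ± 0.086 SE, edgeR adjusted p = 0.0181 in vehicle and log2 0.21 ± 0.078 SE, edgeR adjusted p = 0.0446 in ivermectin). The call ended in vehicle without wild-type library 1 or 3 or knockout library 4 (edgeR adjusted p from 0.0593 to 0.0838), and in ivermectin without any 1 library other than wild-type library 3 or knockout library 4 (0.0527 to 0.12). Rrm1, the large subunit of ribonucleotide reductase, rose in ivermectin (log2 0.20 ± 0.058 SE, edgeR adjusted p = 0.00761), and in vehicle it stood at log2 0.14 ± 0.060 SE, edgeR adjusted p = 0.0987, passing there without wild-type library 1 (0.0401). Rrm2, the small subunit, read 245, 220.0, 235 and 239 CPM with vehicle and 237, 241, 205 and 224 CPM with the drug in the wild type, and 247, 245, 237 and 229.9 CPM with vehicle and 227, 231, 221 and 255 CPM with the drug in the knockout line. All 4 groups overlapped and neither comparison passed. Pcna read in vehicle 543, 515, 482 and 469.9 CPM in the wild type and 504, 446, 477 and 515 in the knockout line, and in ivermectin 475, 526, 514 and 524 in the wild type and 526, 497, 509.6 and 475 in the knockout line. No group stood apart for this clamp gene. Cdt1, a licensing factor that loads the helicase, fell in ivermectin alone (log2 -0.23 ± 0.089 SE, edgeR adjusted p = 0.0473), with groups that overlapped, and the call was lost on leaving out any 1 ivermectin library other than wild-type library 2 (edgeR adjusted p from 0.0532 to 0.149). Pola1, Gins1 and Cdc6, of the polymerase, the helicase and its loader, passed in neither comparison. The E2F factors E2f1 and E2f2, which switch on these genes, also passed in neither.

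Set against each other, the 14 listed S-phase genes stood lower relative to the 17 listed mitotic genes in the knockout line. An index was formed for each library as the mean log2 CPM of the 14 S-phase or the 17 mitotic genes. The S-phase index was 7.54 ± 0.013 (SD, n = 4) in wild-type vehicle and 7.62 ± 0.022 in knockout vehicle, and the mitotic index was 7.55 ± 0.028 and 7.71 ± 0.033. Under ivermectin the S-phase index was 7.54 ± 0.035 in the wild type and 7.61 ± 0.035 in the knockout line, and the mitotic index was 7.56 ± 0.032 and 7.74 ± 0.023. The S-phase minus mitotic difference was -0.033 to 0.043 over the wild-type vehicle libraries and -0.13 to -0.057 over the knockout vehicle libraries. In ivermectin it was -0.064 to 0.041 in the wild type and -0.14 to -0.10 in the knockout line. The lines did not overlap in either treatment, and the difference of knockout minus wild type was -0.09 ± 0.026 SE in vehicle and -0.11 ± 0.024 SE in ivermectin. The vehicle difference was -0.049 on counts thinned to the smallest total and -0.044 from summed CPM. Fold changes within a class spanned a wider range, from -0.21 to 0.57 over the mitotic genes and from -0.17 to 0.41 over the S-phase genes in vehicle. Since genes are not replicates, no p-value is given. The contrast is one of these listed genes, and the medians of the further S-phase and mitotic lists below do not share its order in ivermectin.

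The classes also differed in their promoters, a feature the choice of genes did not use. RefSeq promoter windows of GRCm38.p6, from 250 bases before to 50 bases after a gene's start, were at hand for 37 of the 47 genes, in 42 windows; Ccnd2, Mcm4, Aurkb, Rb1, Ccna2, Ccnd1, Myc, Tpx2, Ccne2 and Gins1 had none. Exact matches on both strands were sought for the CHR element, as TTTGAA in its first form and TTCGAA in its second, for the E2F site, as TTGGCGC in its first form, TTCCCGC in another, TTGCCGC in another and TTCGCGC in its last, and for the CCAAT box. A CHR match was in the window of 11 of 14 mitotic genes (78.6%) and 2 of 12 S-phase genes (16.7%), against 21.7% of all 27025 genes in the table and 15.6% of the tested genes. An E2F match was in 3 of 14 mitotic genes (21.4%) and 9 of 12 S-phase genes (75.0%), against 10.9% and 21.1%. CCAAT was found in 92.9% and 75.0%, against 41.1% and 44.4%. Matches to different motifs overlapped in the windows of Ccnb1 and Mcm7 alone among the 37 genes with a window. A match is a run of letters and no proof of a binding site, and the classes were drawn up by known function, so these shares describe the list.

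The promoters of 5 genes show the contrast, 3 from mitotic genes that rose, and 2 from MCM genes of which Mcm3 rose and Mcm6 did not; each is the 250 bases before the start, read 5′ to 3′ on the gene's strand, with CHR, E2F and CCAAT matches of either strand in capitals.
Cdk1, chr10:69352913-69353162, minus strand: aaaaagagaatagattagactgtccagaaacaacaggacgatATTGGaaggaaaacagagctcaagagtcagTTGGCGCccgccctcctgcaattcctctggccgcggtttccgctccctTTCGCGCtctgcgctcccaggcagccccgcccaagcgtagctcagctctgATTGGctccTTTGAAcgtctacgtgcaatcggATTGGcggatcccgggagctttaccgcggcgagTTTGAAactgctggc
Top2a, chr11:99024190-99024439, minus strand: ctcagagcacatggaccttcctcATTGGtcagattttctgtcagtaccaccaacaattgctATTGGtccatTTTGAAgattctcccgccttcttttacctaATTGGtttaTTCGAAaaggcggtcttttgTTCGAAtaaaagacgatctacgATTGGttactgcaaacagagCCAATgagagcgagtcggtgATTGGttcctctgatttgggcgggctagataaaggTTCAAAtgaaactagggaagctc
Ccnb2, chr9:70421555-70421804, minus strand: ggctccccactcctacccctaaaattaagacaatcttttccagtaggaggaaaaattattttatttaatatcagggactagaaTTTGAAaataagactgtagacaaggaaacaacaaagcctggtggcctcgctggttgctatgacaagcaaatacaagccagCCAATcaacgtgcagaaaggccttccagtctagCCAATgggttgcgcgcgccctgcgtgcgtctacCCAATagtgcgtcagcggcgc
Mcm3, chr1:20820313-20820562, minus strand: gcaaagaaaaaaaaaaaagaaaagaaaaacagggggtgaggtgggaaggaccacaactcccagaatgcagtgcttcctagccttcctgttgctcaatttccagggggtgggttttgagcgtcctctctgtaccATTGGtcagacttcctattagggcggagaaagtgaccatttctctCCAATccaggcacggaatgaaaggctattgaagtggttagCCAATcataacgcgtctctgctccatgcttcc
Mcm6, chr1:128359706-128359955, minus strand: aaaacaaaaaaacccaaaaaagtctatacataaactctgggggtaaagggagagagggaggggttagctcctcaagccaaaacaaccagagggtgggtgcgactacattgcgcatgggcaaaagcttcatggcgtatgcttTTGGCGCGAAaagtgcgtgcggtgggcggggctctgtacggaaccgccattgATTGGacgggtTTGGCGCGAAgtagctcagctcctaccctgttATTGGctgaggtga
Cdk1 has 2 CHR matches, whose first bases lie 71 and 15 bases before the start, 2 E2F matches at 178 and 130, and 3 CCAAT boxes. Top2a has 4 CHR matches and 6 CCAAT boxes and no E2F match. Ccnb2 has 3 CCAAT boxes, at 87, 54 and 21 bases, and a CHR match at 167 in these bases. Mcm6 has 4 E2F matches, which overlap in pairs, and no CHR match. Mcm3 has neither in the bases printed, and its 3 E2F matches lie after the start. Both the gene that rose and the one that did not thus hold E2F matches in their windows, and among mitotic genes Cdk1 (called) and Mki67 (not called) both hold CHR matches.

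Among cyclins and inhibitors, Ccnd2 was higher and Ccne2 lower in the knockout line. Ccnd2, cyclin D2, at chr6:127125162-127152188 in GRCm38.p6, had the largest change of the genes that passed. It read 146, 137, 127 and 137 CPM with vehicle and 149.9, 137, 159 and 158 CPM with the drug in the wild type, and 222, 280.3, 235 and 253 CPM with vehicle and 236, 233, 229 and 217 CPM with the drug in the knockout line. The lowest knockout value, 217 CPM, was well above the highest wild-type value of 159 CPM. The level was 1.82-fold that of the wild type in vehicle (log2 0.86 ± 0.081 SE, edgeR adjusted p = 3.44e-10) and 1.52-fold in ivermectin (log2 0.61 ± 0.075 SE, edgeR adjusted p = 9.53e-08). Ccnd2 supplied 49.0 ± 4.90% (SD, n = 4) of D-cyclin TPM in wild-type vehicle and 59.2 ± 2.84% in knockout vehicle, and 49.9 ± 2.25% and 60.2 ± 2.38% in ivermectin. Ccnd1 read in vehicle 1.12, 0, 1.07 and 2.79 CPM in the wild type and 4.07, 2.51, 0.998 and 2.12 in the knockout line, and in ivermectin 2.499, 2.19, 1.99 and 2.296 in the wild type and 2.14, 1.71, 0.653 and 1.94 in the knockout line. It stayed within a few counts per library in every group. Ccnd3, cyclin D3, passed in neither comparison.

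The E-type cyclins went in opposite directions in vehicle. Ccne2, cyclin E2, read 91.04, 85.1, 72.6 and 74.3 CPM with vehicle and 81.96, 82.2, 72.9 and 62.8 CPM with the drug in the wild type, and 63.9, 45.6, 63.4 and 61.98 CPM with vehicle and 50.9, 62.8, 65.98 and 47.2 CPM with the drug in the knockout line. In vehicle every knockout library was below every wild-type library, with knockout library 2 far below its group, and in ivermectin the groups overlapped through wild-type library 4. Ccne2 fell in both comparisons, at log2 -0.46 ± 0.13 SE, edgeR adjusted p = 0.0082 in vehicle and log2 -0.42 ± 0.12 SE, edgeR adjusted p = 0.00772 in ivermectin. Ccne1, cyclin E1, rose in vehicle (log2 0.31 ± 0.11 SE, edgeR adjusted p = 0.0306) without overlap and stood at log2 0.16 ± 0.098 SE, edgeR adjusted p = 0.251 in ivermectin. The Ccne1 call was lost without wild-type vehicle library 2 or 3 or knockout vehicle library 3 or 4 (edgeR adjusted p from 0.0559 to 0.103) and under DESeq2 (adjusted p = 0.114). Of the kinases, Cdk4, which binds D cyclins, stood at log2 0.09 ± 0.074 SE, edgeR adjusted p = 0.396 in vehicle and log2 0.13 ± 0.070 SE, edgeR adjusted p = 0.176 in ivermectin. Cdk2, which binds E and A cyclins, did not pass in vehicle (log2 -0.29 ± 0.12 SE, edgeR adjusted p = 0.0841), although all 4 knockout values, 44.1 to 46.4 CPM, were below all 4 wild-type values, 52.3 to 61.3 CPM. In ivermectin the Cdk2 estimate had the other sign, at log2 0.09, did not pass, and the groups overlapped.

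Of the 3 inhibitors, 1 was called lower in each treatment, and it was a different gene each time. Cdkn1a, p21, a target of p53, read 74.2, 80.2, 63.03 and 82.7 CPM with vehicle and 75.97, 73.99, 81.5 and 99.5 CPM with the drug in the wild type, and 59.8, 61.2, 56.9 and 66.2 CPM with vehicle and 59.5, 69.1, 58.8 and 64.04 CPM with the drug in the knockout line. In ivermectin the knockout libraries were all below the wild-type libraries, and in vehicle wild-type library 3 reached into the knockout range. Cdkn1a fell in ivermectin (log2 -0.38 ± 0.10 SE, edgeR adjusted p = 0.00591) and in vehicle stood at log2 -0.30 ± 0.12 SE, edgeR adjusted p = 0.0568, passing there without wild-type vehicle library 3 (edgeR adjusted p = 0.0299). Cdkn2c, p18, read in vehicle 497, 507, 482 and 433 CPM in the wild type and 426, 383, 439 and 412 in the knockout line, and in ivermectin 414, 478, 461 and 503 in the wild type and 434, 427, 446 and 485 in the knockout line. The vehicle groups overlapped at 1 pair of libraries, and the ivermectin groups throughout. It fell in vehicle (log2 -0.21 ± 0.065 SE, edgeR adjusted p = 0.0197), but not without wild-type library 1, 2 or 3 or knockout library 2 (edgeR adjusted p from 0.0553 to 0.0958), and in ivermectin stood at log2 -0.05 ± 0.063 SE, edgeR adjusted p = 0.608. Cdkn1b, p27, read 303, 292, 312 and 293 CPM with vehicle and 294, 286, 281 and 277 CPM with the drug in the wild type, and 293, 279.8, 264 and 291 CPM with vehicle and 263, 262, 264 and 249 CPM with the drug in the knockout line. Its ivermectin groups did not overlap and its vehicle groups did, and it did not pass in vehicle (log2 -0.09 ± 0.061 SE, edgeR adjusted p = 0.326) or in ivermectin (log2 -0.14 ± 0.059 SE, edgeR adjusted p = 0.0836).

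**Figure D4:**
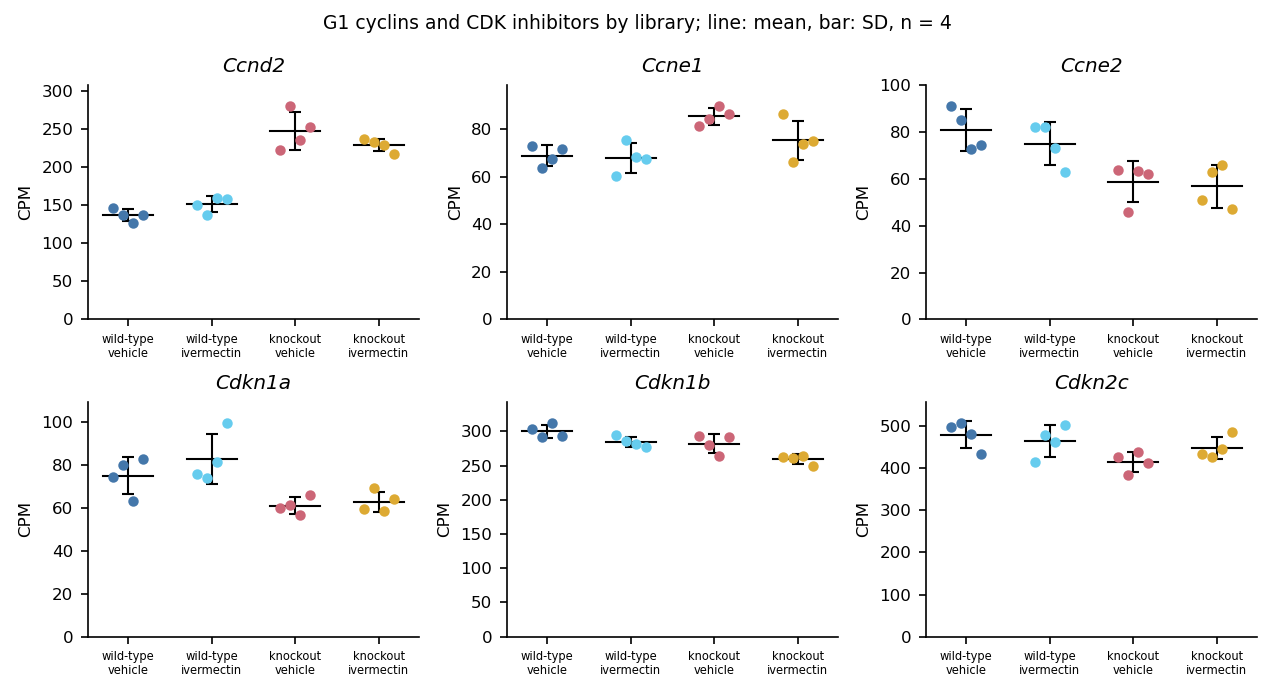
CPM of 3 G1 cyclins (Ccnd2, Ccne1, Ccne2) and the 3 CDK inhibitors (Cdkn1a, Cdkn1b, Cdkn2c) in each of the 16 libraries (points; line, group mean; error bar, SD, n = 4), with each axis starting at 0. Ccnd2 is higher and Ccne2 lower in the knockout groups, Ccne2 with overlap in ivermectin, and Cdkn1a lies lower there with overlap in vehicle.

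Summed by TPM, the D cyclins stood at 74.8 ± 5.18 (SD, n = 4) in wild-type vehicle and 106 ± 13.2 in knockout vehicle, and at 79.6 ± 6.22 and 91.7 ± 10.6 in ivermectin. The 3 inhibitors summed to 1064 ± 51.8 and 884 ± 19.2 TPM in vehicle, and to 1013 ± 19.6 and 876 ± 31.5 TPM in ivermectin. TPM carries no TMM factors, so sums between the lines depend on scaling. In ivermectin Cdkn2c averaged 752 TPM in the wild type and 669 TPM in the knockout line, but 464 and 448 CPM. Pcna averaged 707 and 640 TPM there, but 510 and 502 CPM. How much of the lower inhibitor sum is scaling was not tested. D-cyclin RNA was thus 7.05 ± 0.690% of inhibitor RNA in wild-type vehicle and 12.0 ± 1.48% in knockout vehicle, and 7.87 ± 0.738% and 10.5 ± 1.21% in ivermectin. In ivermectin the highest wild-type library, 8.82%, overlapped the lowest knockout library, 8.78%. On the log2 CPM scale, the mean of the 4 tested G1 cyclins minus that of the inhibitors ran from -1.59 to -1.49 in the wild type and from -1.18 to -1.04 in the knockout line in vehicle, a difference of 0.43 ± 0.041 SE with no overlap. In ivermectin it ran from -1.63 to -1.41 and from -1.40 to -1.12, a difference of 0.27 ± 0.080 SE, with no overlap by a small margin. The cyclin mean alone differed by 0.23 ± 0.040 SE in vehicle without overlap, and by 0.086 ± 0.051 SE in ivermectin with overlap. The inhibitor mean differed by -0.19 ± 0.032 SE and -0.19 ± 0.045 SE, without overlap. In vehicle the 4 cyclins stood at log2 0.86 (Ccnd2), 0.31 (Ccne1), 0.24 (Ccnd3) and -0.46 (Ccne2), so the cyclin mean rests largely on Ccnd2.

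**Figure D5:**
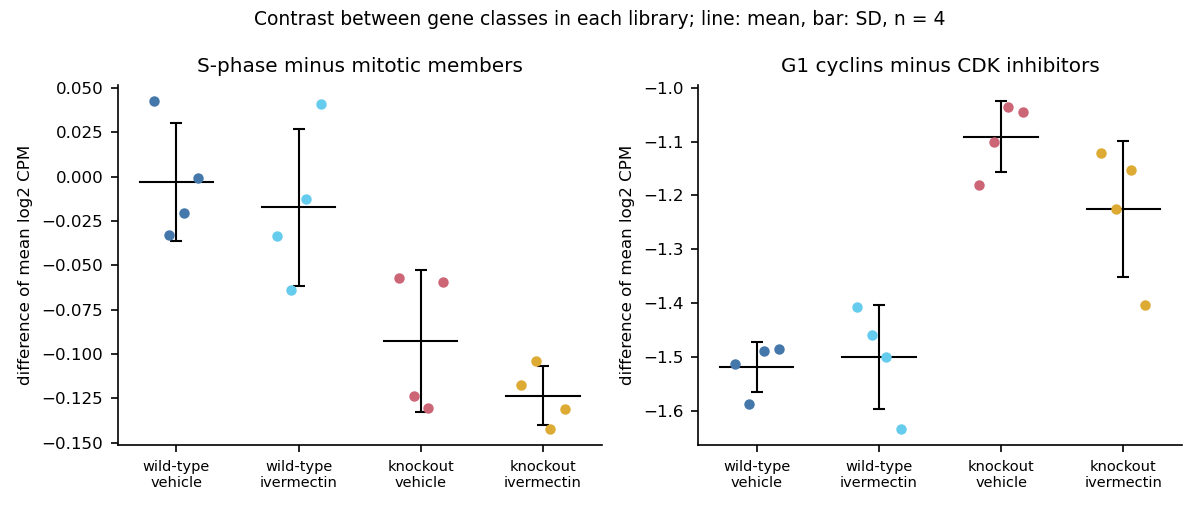
Difference of mean log2 CPM between S-phase and mitotic genes (left) and between G1 cyclins and CDK inhibitors (right) in each library (points; line, group mean; error bar, SD, n = 4), by group. Within each treatment the knockout libraries, at -0.14 to -0.057, lie below the wild-type libraries on the left, though 2 knockout vehicle libraries lie above the lowest wild-type ivermectin library at -0.064. On the right the knockout libraries, at -1.40 to -1.04, lie above the wild-type libraries, by a small margin in ivermectin.

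The regulators upstream of both arms did not pass in either comparison. Rb1, which encodes Rb, read 102, 89.96, 81.2 and 89.2 CPM with vehicle and 82.5, 90.4, 86.2 and 91.9 CPM with the drug in the wild type, and 85.96, 94.3, 82.8 and 79.99 CPM with vehicle and 100.3, 83.96, 90.2 and 93.2 CPM with the drug in the knockout line. The 4 groups overlapped. Trp53, which encodes p53, read in vehicle 69.7, 54.8, 65.2 and 72.4 CPM in the wild type and 72.6, 72.2, 76.8 and 68.3 in the knockout line, and in ivermectin 67.5, 61.9, 51.04 and 63.5 in the wild type and 67.01, 73.7, 82.97 and 65.3 in the knockout line. The knockout line lay toward the upper end, with overlap, at log2 0.15 ± 0.11 SE, edgeR adjusted p = 0.393 in vehicle and log2 0.23 ± 0.11 SE, edgeR adjusted p = 0.0972 in ivermectin. Myc read 2.25, 12.7, 8.55 and 6.501 CPM with vehicle and 6.997, 5.48, 5.97 and 4.59 CPM with the drug in the wild type, and 3.48, 5.01, 3.99 and 3.18 CPM with vehicle and 3.75, 4.57, 5.88 and 3.88 CPM with the drug in the knockout line. Wild-type vehicle spanned the whole range of the other groups, from library 1 at the bottom to library 2 at the top. The Myc estimate was log2 -0.94 ± 0.38 SE, edgeR adjusted p = 0.0744 in vehicle, where it passed without wild-type library 1 (edgeR adjusted p = 0.0184) and stood at log2 -0.56 (edgeR adjusted p = 0.422) without wild-type library 2, and log2 -0.38 ± 0.36 SE, edgeR adjusted p = 0.46 in ivermectin.

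Counted without a model, 12 of 45 genes had vehicle groups that did not overlap, against 22.2% of all genes, and 16 of 45 had ivermectin groups that did not, against 25.3%. In vehicle these included Mcm4 and Cdk2, which were lower in all 4 knockout libraries without passing the test (Mcm4: edgeR adjusted p = 0.108). The 47 genes together took 0.991 ± 0.0070% (SD, n = 4) of counts in the wild type with vehicle and 0.975 ± 0.024% with the drug, and 1.04 ± 0.025% and 1.03 ± 0.026% in the knockout line. The wild-type vehicle group, which had the highest hepatocyte marker sum and the lowest totals, is the reference of every vehicle comparison. With the level of Alb as a covariate, 2 of the 13 vehicle calls stayed (Ccnd2 and Aurka), and 15 of the 17 ivermectin calls did; in vehicle Aurkb then stood at log2 0.68 (edgeR adjusted p = 0.0505) and Cdk1 at log2 0.26 (edgeR adjusted p = 0.369). Alb read 328 to 923 CPM in wild-type vehicle and 17.1 to 52.3 CPM in knockout vehicle, so the line and the marker level cannot be told apart there. Leaving the 10 hepatocyte markers out of the tables kept all 30 calls. That setting leaves the counts of these genes as they were, so it could hardly change a call. It does not test the marker level. Thinning every library to the smallest total kept 23 of the 30 calls. It ended those of Ccnb2 (edgeR adjusted p = 0.123), Birc5 (0.0889) and Ccne2 (0.0666) in vehicle, and of Cenpf, Mcm7, Tyms and Cdkn1a in ivermectin (0.0549 to 0.068). The vehicle estimates were then smaller, at log2 0.25, 0.27 and -0.39 in that order. The ivermectin estimates, at log2 -0.22, 0.18, 0.26 and -0.37, were near those above or larger.

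Ivermectin for 30 min changed none of these genes past the threshold. In the wild type, 0 of 45 passed edgeR's test, against 0.61% of all genes, and 1 gene had an unadjusted p under 0.05, against 5.22% of all genes; DESeq2 also called 0, with 1 at an unadjusted p under 0.05. That gene was Cdk2, which read 52.8, 53.8, 52.3 and 61.3 CPM with vehicle and 37.98, 46.6, 44.4 and 35.98 CPM with the drug. The groups did not overlap, as for 1 of 45 genes against 3.35% of all, and the change was log2 -0.42 ± 0.12 SE, edgeR adjusted p = 0.236. In the knockout line edgeR called 0 of 45, against 0% of all genes, with 2 genes at an unadjusted p under 0.05, against 7.6%, and no gene without overlap, against 3.69%; DESeq2 called 0, and 0 unadjusted. Those genes were Birc5 (log2 0.18 ± 0.085 SE, edgeR adjusted p = 0.653) and Cdkn1b (log2 -0.12 ± 0.058 SE, edgeR adjusted p = 0.653). Median log2 fold changes by role were 0.03 for mitotic and -0.02 for S-phase genes in the wild type, and 0.04 and -0.0050 in the knockout line, beside 0.00 for all genes in each.

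The interaction test, which asks whether the drug's change differed between the lines, called 0 of 45 genes, against 0.222% of all genes, with 2 at an unadjusted p under 0.05, against 5.12%; DESeq2 called 0, with 1 unadjusted. They were Ccnd2 (log2 -0.26 ± 0.11 SE, edgeR adjusted p = 0.964) and Cdk2 (log2 0.37 ± 0.17 SE, edgeR adjusted p = 0.964). For Ccnd2, the drug comparison was log2 0.14 ± 0.087 SE, edgeR adjusted p = 0.989 in the wild type and log2 -0.11 ± 0.069 SE, edgeR adjusted p = 0.707 in the knockout line. So the genes called in 1 treatment alone, such as Ccna2, Mcm7, Rrm1, Ccne1 and Cdkn1a, were not shown to differ between treatments.

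Other genes of the same pathways, drawn up by function, were counted the same way. Of 42 further S-phase genes, 6 rose and 1 fell in vehicle and 10 rose and 2 fell in ivermectin, with medians of 0.09 and 0.11. The rises were 14.3% and 23.8% of the list, against 9.9% and 14% of all genes tested and 13.1% and 18.3% of those at 30 CPM or more, so the share in vehicle was near the background. The falls were 2.38% and 4.76%, against 10.8% and 13.9% of all genes. Rpa1, which coats single-stranded DNA, read 283, 290.4, 298 and 319 CPM in wild-type vehicle and 428, 419.8, 420.0 and 402 CPM in knockout vehicle. All 4 knockout values were higher, and Rpa1 rose by 0.49 ± 0.062 SE on the log2 scale in vehicle (edgeR adjusted p = 1.86e-07) and 0.41 ± 0.059 SE in ivermectin (edgeR adjusted p = 1.73e-06). Usp1, a deubiquitinase of PCNA, fell in both (-0.51 and -0.42, edgeR adjusted p = 6.44e-06 and 5.09e-05). Rfc1, the large subunit of the clamp loader, fell in ivermectin (-0.23, edgeR adjusted p = 0.0375).

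Of 51 further mitotic genes, 8 rose and 1 fell in vehicle and 13 rose and 2 fell in ivermectin, with medians of 0.11 and 0.08. The rises were 15.7% and 25.5% of the list, beside the same 9.9% and 14% of all genes, and 13.1% and 18.3% at 30 CPM or more. The share in vehicle was thus near the background. The shares of the 17 listed mitotic genes, 41.2% and 47.1%, were not reached in this list. The falls were 1.96% and 3.92%, beside 10.8% and 13.9% of all genes. In vehicle the largest rises were Cdkn3 (log2 0.54 ± 0.14 SE, edgeR adjusted p = 0.00347), a phosphatase that acts on CDKs, and Fam64a (log2 0.51 ± 0.14 SE, edgeR adjusted p = 0.0093), and the fall was Ckap2l (log2 -0.41 ± 0.13 SE, edgeR adjusted p = 0.0198), a spindle protein. In ivermectin the largest rises were Spc25 (log2 0.50 ± 0.051 SE, edgeR adjusted p = 2.22e-09), a kinetochore subunit, and Pttg1 (log2 0.48 ± 0.16 SE, edgeR adjusted p = 0.0223), securin. The falls there were Sgol2 (log2 -0.30 ± 0.11 SE, edgeR adjusted p = 0.0305), a protector of centromeric cohesion, and Hjurp (log2 -0.32 ± 0.11 SE, edgeR adjusted p = 0.0274), the chaperone of centromeric histone. Of 29 further regulators, 26 were tested, and 2 rose and 1 fell in vehicle and 1 rose and 1 fell in ivermectin, with medians of 0.05 and -0.03. The rises, 7.69% and 3.85%, and the falls, 3.85% in each comparison, were below the shares over all genes. Tfdp1, the DP1 partner of the E2F factors, read 165, 165, 155 and 155 CPM in wild-type vehicle and 114, 113, 132 and 119.7 CPM in knockout vehicle. The knockout values were all lower, and Tfdp1 fell in vehicle (log2 -0.42 ± 0.085 SE, edgeR adjusted p = 0.000337) and in ivermectin (log2 -0.54 ± 0.081 SE, edgeR adjusted p = 3.52e-06). Cks1b, a CDK subunit, and Men1, the source of menin, rose in vehicle (0.34 and 0.27, edgeR adjusted p = 0.0169 and 0.045), and Pkmyt1, an inhibitory kinase of Cdk1, rose in ivermectin (0.31, edgeR adjusted p = 0.0479). Calls for Ckap2l, Cks1b, Men1, Rfc1, Pttg1, Sgol2, Hjurp and Pkmyt1 each ended on leaving out at least 3 single libraries in turn (edgeR adjusted p up to 0.216). With Alb as a covariate the vehicle calls of Cdkn3, Fam64a, Ckap2l, Cks1b, Men1 and Tfdp1 ended (edgeR adjusted p from 0.313 to 0.821), as did the ivermectin calls of Rfc1, Sgol2 and Pkmyt1 (0.067 to 0.123). The estimates of Cdkn3 (log2 0.54), Cks1b (0.32), Men1 (0.24), Rfc1 (-0.22) and Pkmyt1 (0.27) then stayed near the values above, while those of Fam64a (0.37), Tfdp1 (-0.30), Sgol2 (-0.23) and Ckap2l (-0.16) were smaller. On thinned counts the vehicle calls of Cdkn3, Fam64a, Ckap2l and Men1 and the ivermectin calls of Sgol2, Hjurp, Pttg1 and Pkmyt1 ended (0.0604 to 0.41). The estimates of Ckap2l (log2 -0.39), Men1 (0.30), Hjurp (-0.28) and Sgol2 (-0.25) then stayed near the values above. Those of Cdkn3 (0.43), Fam64a (0.38), Pttg1 (0.37) and Pkmyt1 (0.19) were smaller. DESeq2 did not call Ckap2l or Men1 in vehicle or Rfc1, Pttg1, Sgol2, Hjurp and Pkmyt1 in ivermectin (adjusted p from 0.0603 to 0.179).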

How the data were processed

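Libraries were made from 125 ng of polyadenylated RNA with a directional kit, amplified for 11 cycles and sequenced in pairs of 42-base reads, per the labels' protocols. The deposited per-library tables hold RSEM expected counts and TPM per gene, made by the authors with the tools STAR 2.7.2b and RSEM 1.3.3 and the mm10 build, per the submitters' processing notes. The whole-number count table that the authors deposited equals those expected counts rounded down in every value.

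Expected counts were rounded to whole numbers. Genes were kept with filterByExpr (at least 10 counts, and 15 in total), which kept 10822, and tested in R 4.3.3 with edgeR 4.0.16: TMM factors, quasi-likelihood F test, 1 mean per group over 16 libraries, Benjamini-Hochberg adjustment over all genes tested and a threshold of 0.05. SEs were derived from each log2 fold change and the square root of F. The log2 CPM of the indices used a prior count of 2. TPM served to compare levels between genes, and for the sums and shares of D cyclins and inhibitors by group. The fits were tested on simulated data. Intervals and limits cover counting error only, since reads without molecular identifiers are not independent molecules. Whether any of the genes shares reads with a near-identical copy was not tested.

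The 47 genes, the other lists and the tests were chosen with earlier results of these data known. Values are given in every library for 15 genes (Mki67, Top2a, Ccnb1, Cdk1, Pcna, Mcm2, Rrm2, Ccnd1, Ccnd2, Cdkn1a, Cdkn1b, Cdkn2c, Rb1, Trp53 and Myc) and for the 8 largest called changes of each comparison; of the other lists, up to 2 rises and 2 falls are named. Replicate numbers in the labels did not pair the samples. DESeq2 1.42.0 served as an alternative. Deposited single-cell files of human donors from another study were not used here. The result for a further gene that the naming rule selected is not reported here.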

Additional observations from a re-analysis of the deposited data

Results flagged for a closer look

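In 4 of 112 sets of 4 libraries (the genes given in full or called, in each group), 1 library lay outside the rest by more than the 95% limit of Dixon's test. Chance alone gives about 6 such sets in 112. Aurka read 111.8 CPM in wild-type ivermectin library 4, where the other 3 read 93.46 to 94.79. Mki67 read 920.5 CPM in knockout vehicle library 1, where the others read 1071 to 1097. Ccne2 read 45.64 CPM in knockout vehicle library 2, against 61.98 to 63.89. Cdkn1b read 249.1 CPM in knockout ivermectin library 4, against 261.6 to 263.9. The calls of Aurka and Ccne2 held without these libraries, and Mki67 and Cdkn1b passed neither with nor without them.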

How the results depend on the processing

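Of the 30 calls in the 2 knockout comparisons, 26 held under DESeq2 (not Ccne1 in vehicle or Cdt1, Cenpf and Tyms in ivermectin), 30 with relative log expression factors, 29 without the filter on low counts and 30 on the deposited count table, and none reversed. The genes called in vehicle, 13 as reported, numbered 11 to 14 on leaving out 1 library at a time, 2 with Alb as a covariate and 1 when tested against a 1.5-fold change (Ccnd2). In ivermectin the 17 became 14 to 15 without 1 library and 0 against 1.5-fold. The estimate for Ccna2 in vehicle turned to -0.034 with Alb as a covariate, and that for Ccne1 in ivermectin to -0.096 on thinned counts; neither had passed, and the cause was not tested. The S-phase minus mitotic difference between lines in vehicle was -0.049 on thinned counts and -0.044 from summed CPM, and -0.10 to -0.075 without 1 library. The cyclin minus inhibitor difference in vehicle was 0.502 with Ccnd1 included and 0.598 from summed CPM, and 0.41 to 0.46 without 1 library. For the drug, 0.019 ± 0.054 SE in the wild type became 0.133 with Ccnd1 included, and -0.13 ± 0.071 SE in the knockout line became -0.244 on thinned counts; without these changes the groups overlapped in both lines. The hepatocyte marker setting was chosen after seeing the data. Low totals limit Myc, Ccnd1 and Cdk6 most.

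By the rule used, replicate numbers did not pair the samples: deviations of same-numbered libraries had correlations from -0.057 to 0.145 (median 0.021, 24 pairs), not over 0.1 in every pair. Yet 9 of 16 libraries were closest to one of their own number, where an even spread gives 4, which is a hint of sharing from the data and not from the design. With a replicate block 13 genes were called in vehicle, 17 in ivermectin and 0 for the drug in either line or the interaction, and all 30 calls held. Of the other genes named, Pkmyt1 was lost under the block (edgeR adjusted p = 0.055).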
